A study of Rattus norvegicus with 4 samples.

Results

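Interstitial collagens, fibronectin and the small proteoglycan biglycan were examined in glomeruli of male Wistar rats after an intravenous dose of Adriamycin (ADR), the anthracycline doxorubicin, which injures podocytes and produces nephrotic syndrome in rodents. The members were set by symbol: Col1a1, Col1a2, Col3a1, Col5a1, Col5a2, Col6a1, Col6a2, Fn1, Dcn and Bgn. Values were analysed for 8 of these 10 genes, of 13261 genes in all; Col1a2 and Dcn were not analysed here. The 4 samples form a single group with the treatment label ADR, and no untreated or otherwise treated animals were analysed here, so the data give levels and the spread between samples and no effect of ADR. All animals weighed about 150 to 175 g; glomeruli were isolated by sieving on day 11 or day 21, and the labels do not say which day, which ADR dose or which age applied, or whether glomeruli of several animals were pooled. Nothing in the labels says outright that the samples came from separate animals, and p-values then measure only the spread between these samples.

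Fibrillar collagens are triple-helical proteins that bundle into the tensile fibres of connective tissue. Type I, with type III beside it, is the main collagen of scars, and type V sits inside the type I fibril and sets its diameter. Type VI collagen forms beaded microfibrils around cells and needs its alpha 1 and alpha 2 chains together with a further chain. Fibronectin is a glycoprotein that cells assemble early into a provisional matrix on which collagen is laid down. Biglycan and decorin are small leucine-rich proteoglycans that bind collagen fibrils and growth factors. In the glomerulus this matrix is made chiefly by mesangial cells and accumulates in glomerulosclerosis.

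The 4 libraries carried 13566962 to 16207027 reads in the genes used. The counts of whole reads were read back from the deposited values, which are log2 counts per total of the library (log2 CPM, reads scaled to an equal total in each sample) with 0.5 reads added to each count. No 2 samples agreed within counting noise: even in the closest of the 6 pairs, the chi-square statistic averaged 17.4 over genes, where counting noise alone gives 1. Coding mitochondrial genes took 7.46% of reads in replicate 1 and 12.5% in replicate 2, the ends of their range. The markers of the labelled tissue were abundant in every sample. The 10 podocyte markers summed to between 7781 and 13433 CPM, the 9 endothelial markers to between 6008 and 7809 CPM and the 10 mesangial markers to between 2796 and 3655 CPM. Proximal tubule markers were also present, with the 10 genes summing to between 2931 and 6016 CPM, so the sieved material was not free of tubular RNA. CPM are not corrected for transcript length, and no lengths were used here; levels are therefore compared between samples, and where a gene is called the highest or lowest of a list, that refers to its CPM and is no order per length.

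Promoter sequence from RefSeq (build GRCr8) is shown for Col6a1 and Col5a2, since the former differed about 3-fold between samples and the latter little. Each is the 250 bases before the gene's start, 5′ to 3′ on the gene's strand, chr20:11905440-11905689 (plus strand) for Col6a1 and chr9:55090152-55090401 (minus strand) for Col5a2; the submitters' processing notes name another build, Rnor_6.0, for the expression data.
Col6a1: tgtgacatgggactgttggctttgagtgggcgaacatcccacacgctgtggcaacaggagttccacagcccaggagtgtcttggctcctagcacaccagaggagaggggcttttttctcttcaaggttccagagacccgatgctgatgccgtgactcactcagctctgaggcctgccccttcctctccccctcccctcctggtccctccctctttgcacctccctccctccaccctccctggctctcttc
Col5a2: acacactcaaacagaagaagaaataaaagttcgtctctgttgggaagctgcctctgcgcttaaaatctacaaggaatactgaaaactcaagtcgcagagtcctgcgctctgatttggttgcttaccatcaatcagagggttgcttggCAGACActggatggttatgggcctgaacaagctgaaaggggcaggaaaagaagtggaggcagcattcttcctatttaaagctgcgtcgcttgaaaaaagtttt
Capitals mark matches, on either strand, to the motifs searched, which were TATAAA (the TATA box) and CCAAT (the CCAAT box) together with GGGCGG (the core of the GC box) and CAGACA (a sequence bound by Smad proteins). The single match is CAGACA in Col5a2, whose first base lies 103 bases before the start. Over all 33469 promoters of the same length, 12.9% held TATAAA and 34% held CCAAT, while 30.5% held GGGCGG and 17.2% held CAGACA. The Col6a1 window was 60% G and C, and the Col5a2 window 44.8%, against a median of 51.2% over all promoters. These letters describe the windows only.

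The deposited log2 values of all 8 genes had a median SD over the 4 samples of 0.53, against 0.18 for all genes, and 5 of the 8 lay above the upper quartile of all genes, 0.29. The genes differed in this respect. Col3a1, Fn1, Col6a1 and Col6a2 had SDs from 0.64 to 0.97 and were all lowest in replicate 1, whereas Col5a1 and Col5a2 had SDs of 0.15 and 0.19, close to the median gene. Between these lay Col1a1, at 0.43, and Bgn, at 0.29. Without replicate 1 the median SD was 0.28 for the 8 genes and 0.15 for all genes.

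**Figure D1:**
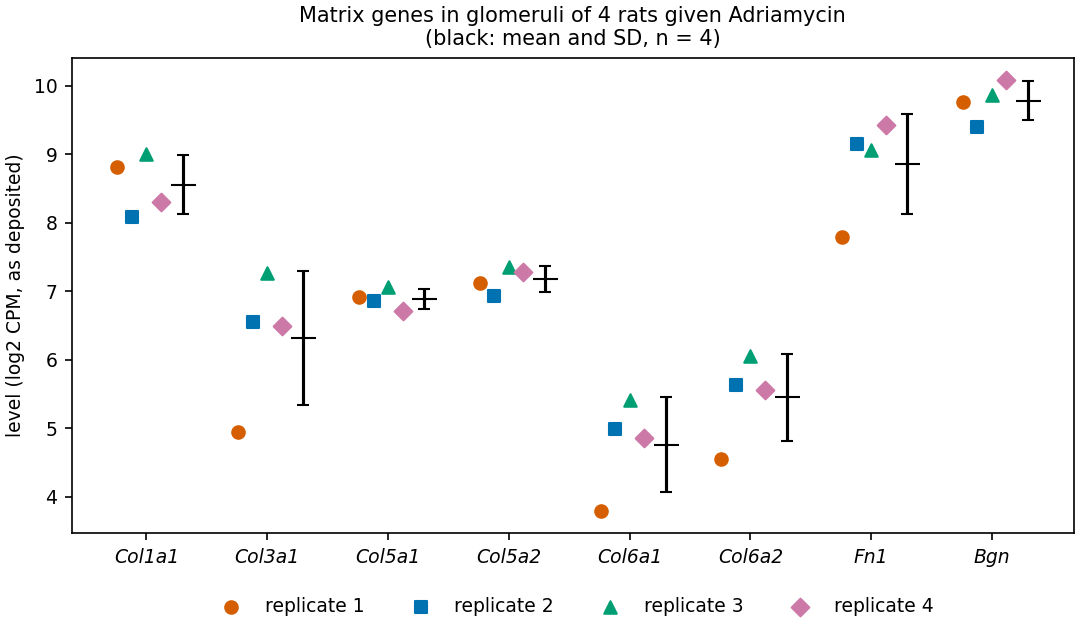
Level of each of the 8 matrix genes in log2 CPM as deposited (vertical axis), with a symbol per sample and the mean and SD (n = 4 samples) in black. The title takes the 4 samples as 4 rats, which the labels do not say outright. Replicate 1 sits apart at the bottom for Col3a1, Col6a1, Col6a2 and Fn1, while the 4 samples lie close together for Col5a1 and Col5a2.

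Among the fibrillar chains, Col1a1 (ENSRNOG00000003897), the alpha 1 chain of type I collagen, reached 449.9, 272, 516 and 317 CPM in replicates 1 to 4. Replicates 1 and 3 were high and replicates 2 and 4 low, a 1.90-fold range, and the mean was 389 ± 114 CPM (SD, n = 4). Col3a1 (ENSRNOG00000003357), whose product forms the homotrimer of type III collagen, behaved differently, at 31.0, 93.9, 153 and 90.5 CPM. Replicate 1 was lowest and replicate 3 highest, with replicates 2 and 4 between them and nearly equal. The highest Col3a1 value was 4.95 times the lowest, and the mean was 92.2 ± 50.0 CPM (SD, n = 4). Replicate 1 held 420 Col3a1 reads and replicate 3 held 2354. The type V chains differed little. Col5a1 (ENSRNOG00000008749) was at 121, 117, 134 and 105 CPM, a 1.28-fold range, and Col5a2 (ENSRNOG00000003736) at 139.9, 123, 164 and 156 CPM, a 1.34-fold range. Replicate 3 was highest for both, but the lowest sample was replicate 4 for Col5a1 and replicate 2 for Col5a2.

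The chains of the microfibrillar type VI collagen varied together. Col6a1 (ENSRNOG00000001249) reached 13.8, 31.9, 42.5 and 29.0 CPM in replicates 1 to 4, from 187 to 652 reads. Col6a2 (ENSRNOG00000001254) reached 23.5, 49.5, 66.8 and 47.4 CPM, from 318 to 1025 reads. Both were lowest in replicate 1, highest in replicate 3 and intermediate in replicates 2 and 4, with ranges of 3.08-fold and 2.85-fold. Fn1 (ENSRNOG00000014288), the fibronectin gene, was at 222, 569, 535 and 692 CPM, so that replicate 1 alone was low and the other samples lay within a narrow band, with replicate 4 highest. Its mean was 504 ± 199.7 CPM (SD, n = 4), and its log2 SD of 0.73 was 0.19 without replicate 1. The proteoglycan gene Bgn (ENSRNOG00000055962) was at 872, 677, 929.7 and 1090.5 CPM, lowest in replicate 2 and highest in replicate 4, a 1.61-fold range.

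Across the 8 genes, replicate 1 was the lowest sample for 4 and the highest for 0, and replicate 3 the highest for 6 and the lowest for 0. Among all genes, replicate 1 was lowest for 35% and replicate 3 highest for 29.6%. The mean log2 value of the other samples exceeded that of replicate 1 by 1.82 for Col3a1, 1.42 for Fn1, 1.30 for Col6a1 and 1.20 for Col6a2; a gap as large as that of Col3a1 was found for 18 of the 13261 genes, itself included, and one as large as that of Col6a2 for 91. For Col5a1, Col5a2 and Bgn the same difference lay between -0.04 and 0.07, and for Col1a1 it was -0.34, replicate 1 being higher. The median over all genes of replicate 1 minus the mean of the others was -0.02, on a scale that sets the totals equal.

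**Figure D2:**
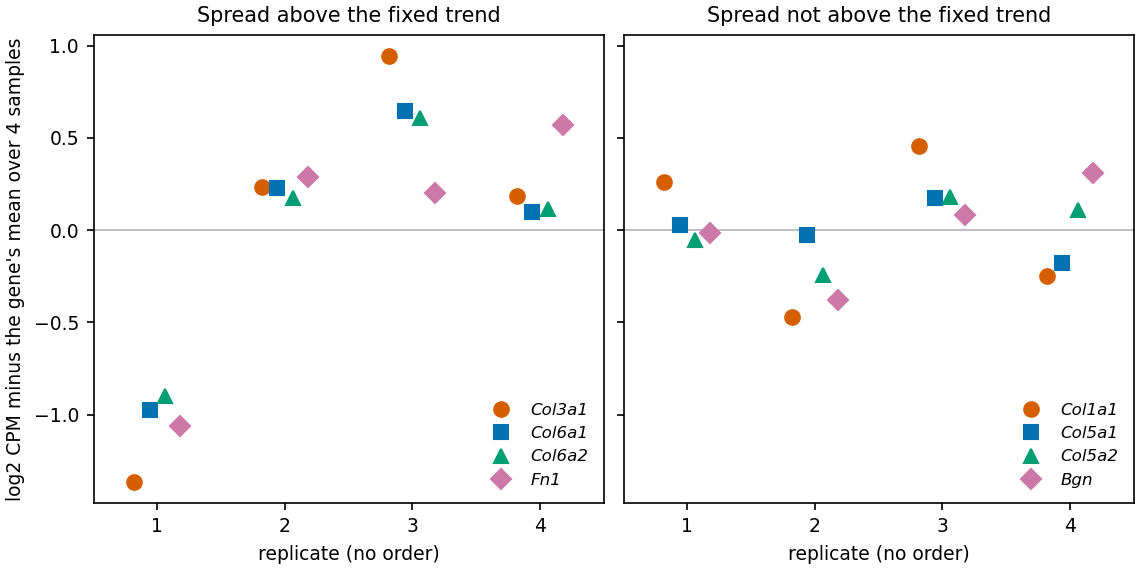
Log2 CPM of each gene minus its mean over the 4 samples (vertical axis), by replicate (horizontal axis; replicates have no order), for the 4 genes above the fixed dispersion trend (left) and the other 4 (right). On the left, replicate 1 lies below the mean for each gene, by -0.90 to -1.36; on the right the values run from -0.47 to 0.46.

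Whether these differences exceeded counting error was tested with a chi-square index of dispersion on the recovered reads, fitted over all genes. All 8 of the genes passed (largest Benjamini-Hochberg adjusted p = 1.97e-11), but so did 69.5% of all genes tested. Counting error alone would give a log2 SD of 0.08 for Col6a1, the gene with the fewest reads, and 0.01 for Bgn, the gene with the most.

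A stricter question is whether a gene varied more than others of like abundance. The F test of residual variance against limma's abundance trend called 0 of the 8 genes and 0% of all genes at an adjusted p under 0.05. At an unadjusted p under 0.05 it passed 4 of the 8, namely Col3a1, Fn1, Col6a2 and Col6a1, and 5.44% of all genes; the limma adjusted p was 0.913 for each of these. With the dispersion trend held fixed, a Pearson statistic on the recovered reads called the same 4 genes, against 7.52% of all genes. This test was first applied to these data after limma's result was known. Its adjusted p was 2.55e-12 for Col3a1, 1.38e-05 for Col6a1, 8.59e-05 for Col6a2 and 0.00231 for Fn1, compared with 0.0731 for Col1a1, 0.613 for Bgn, 0.758 for Col5a2 and 0.974 for Col5a1 (Pearson statistic at the fixed trend, Benjamini-Hochberg over all genes). Without replicate 1 the calls for Col6a1, Col6a2 and Fn1 were lost, at adjusted p = 0.239, 0.274 and 0.941 in the fixed-trend test, while Col3a1 was still called, at 0.00145, and Col1a1 passed, at 0.0333. The excess of the type VI chains and fibronectin thus rests on replicate 1, and that of Col3a1 does not rest on it alone. The labels do not give harvest day or ADR dose per sample. A difference of replicate 1 in either cannot be told apart from other spread between samples.

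**Figure D3:**
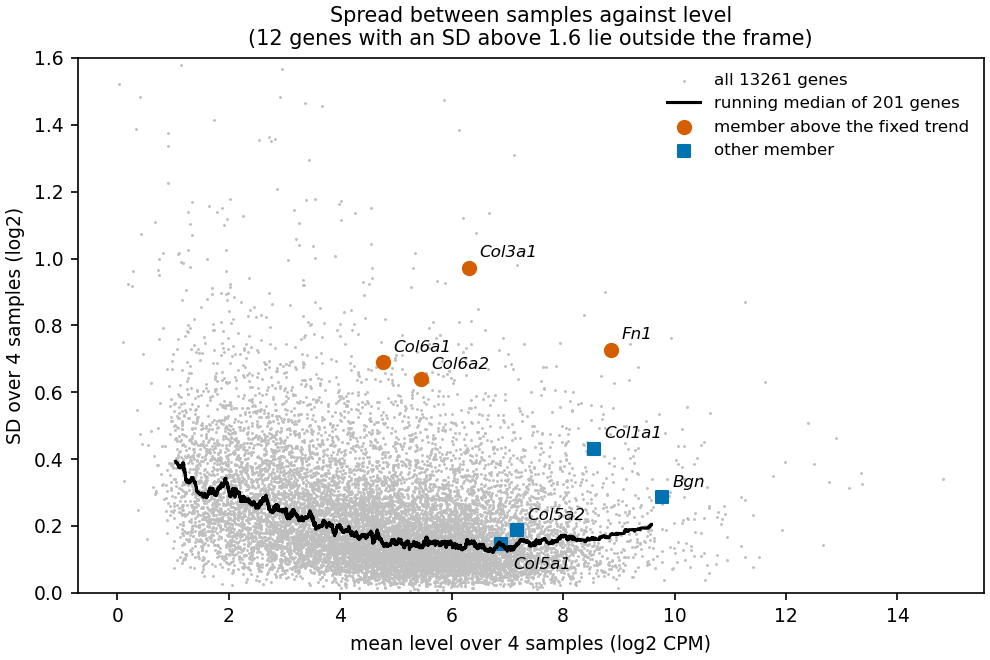
SD of the log2 values over 4 samples (vertical axis) against mean level (horizontal axis, log2 CPM) for all genes in grey with a running median of 201 genes in black; 12 genes lie above the frame. Col3a1, Fn1, Col6a1 and Col6a2 stand well above the line, at SDs of 0.97, 0.73, 0.69 and 0.64, and Col5a1 lies on it.

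Ratios of reads within a sample do not depend on scaling between samples, and chains of the same collagen were compared in this way. The log2 ratio of Col6a1 to Col6a2 was -0.77, -0.64, -0.65 and -0.71 in replicates 1 to 4. The exact 95% counting intervals (Clopper-Pearson) of these values all overlapped, that of replicate 1 running from -1.03 to -0.50. The ratio had an SD of 0.06, against 0.69 and 0.64 for the genes themselves. Thus both chains differed about 3-fold between samples while their ratio stayed within 1.09-fold. The type V chains showed the reverse. The log2 ratio of Col5a1 to Col5a2 was -0.21, -0.07, -0.30 and -0.58, and its SD of 0.21 exceeded that of Col5a1, 0.15, and Col5a2, 0.19. Replicate 4 had the lowest ratio, with an interval from -0.67 to -0.49 that overlapped none of the others. Counting intervals cover counting error only. The ratios of Col1a1 to Col1a2 and of Dcn to Bgn were not analysed here.

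The type III and type I genes were not proportional. The log2 ratio of Col3a1 to Col1a1 was -3.86 in replicate 1 (95% interval -4.01 to -3.72) and -1.53, -1.75 and -1.81 in replicates 2 to 4. Relative to Col1a1, Col3a1 was thus 5.02-fold lower in replicate 1 than in replicate 2, and the other samples lay close together. For Fn1 to Col1a1 the log2 ratio was -1.02, 1.07, 0.05 and 1.13, and the 95% interval of replicate 1, from -1.08 to -0.95, lay apart from the rest. Here replicate 3, which had the most Col1a1, also stood below replicates 2 and 4.

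**Figure D4:**
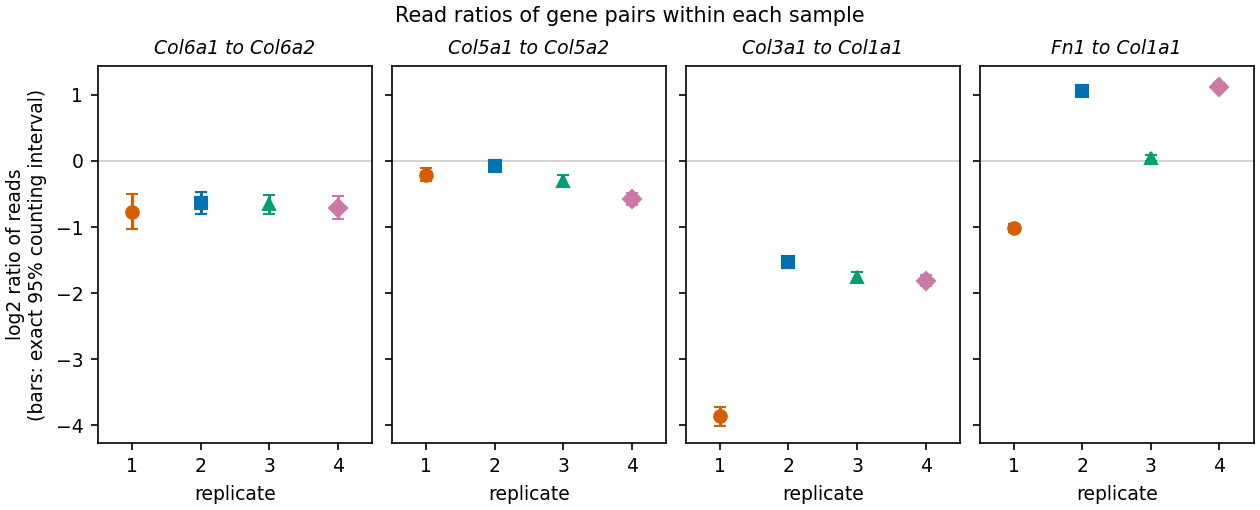
Log2 ratio of reads of 4 gene pairs in each sample (vertical axis, bars are exact 95% counting intervals) by replicate. The Col6a1 to Col6a2 ratio is level, with an SD of 0.06, whereas Col3a1 to Col1a1 is far lower in replicate 1, at -3.86, than in the others.

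Likeness between genes was measured as the root mean square difference of their log2 values after each gene's mean was removed, over the 4 samples. Of the 13260 other genes, Col6a2 was the nearest to Col6a1, at a difference of 0.05, and Col6a1 ranked 2 for Col6a2. Col6a1 ranked 11 and Col6a2 ranked 21 among the genes nearest to Col3a1, at 0.25 and 0.29. Col5a1 and Col5a2 were 0.19 apart, but 39.4% of all genes were as near to Col5a2. In RefSeq (GRCr8), Col6a1 and Col6a2 lie on chromosome 20 with 0 coding genes between them. Col3a1 and Col5a2 also lie next to each other, on chromosome 9 with 0 annotated genes between them. Both were highest in replicate 3, but the highest value was 4.95 times the lowest for Col3a1 and 1.34 times for Col5a2. They were 0.80 apart, and Col5a2 ranked 4925 among the genes nearest to Col3a1.

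The median deviation of the 8 genes was -0.48, 0.08, 0.33 and 0.11 (log2) in replicates 1 to 4. Among the 642 genes outside the member list with an SD at least as large as the members' median, the 5 nearest to this profile were Arhgap45, RGD1559482, Rasal3, Gzmm and Lilrb3a, at root mean square differences from 0.17 to 0.19. The 8 members themselves lay farther from the profile, at 0.26 (Col6a2) to 0.55 (Col3a1). Of the 642 genes, 90 (14%) were at least as near to it as the median member. Arhgap45 encodes a GTPase-activating protein of blood cells and had 1233, 2587, 3317 and 2704 reads in replicates 1 to 4. Gzmm, for the lymphocyte protease granzyme M, had 32, 71, 92 and 68 reads.

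Because sieved glomeruli hold several cell types, marker lists were summed in each sample. The fixed-trend test, which called 7.52% of all genes, passed 8 of 10 proximal tubule, 5 of 10 podocyte, 4 of 10 mesangial and 2 of 7 parietal epithelial markers. It passed 2 of 9 leukocyte, 1 of 6 smooth muscle, 1 of 5 fibroblast and 0 of 9 endothelial markers. The macrophage and leukocyte list reached 1062 CPM in replicate 1 and 1256 to 1367 CPM in the others. Of its 9 genes, 8 were lowest in replicate 1, against 35% of all genes. Ptprc, the common leukocyte antigen CD45, belongs to this list and passed the fixed-trend test (adjusted p = 3.06e-05). Cd74, the invariant chain of class II presentation, was its highest gene at 653 ± 90.2 CPM (SD, n = 4), and Cd3e, a T-cell receptor subunit, its lowest and most variable, at 2.15 ± 0.98 CPM. The smooth muscle and myofibroblast list, from Tagln at 305 ± 57.4 CPM to Synpo2 at 4.16 ± 1.05 CPM, was likewise lowest in replicate 1, at 574 CPM against 687 to 850.4 CPM, with 4 of 6 genes lowest there. Myh11, the smooth muscle myosin heavy chain, varied most in that list, at 32.5 CPM in replicate 1 and 61.9 to 77.6 CPM in the others. The endothelial list was lowest in replicate 1 too, at 6008 CPM, with 6 of 9 genes lowest there. It ran from the VEGF receptor gene Kdr, at 1782 ± 307 CPM, to Plvap, at 202 ± 45.8 CPM, and Egfl7 varied most, with a log2 SD of 0.39. The part of these lists in the low Col3a1, Col6a1, Col6a2 and Fn1 of replicate 1 was not tested. The 3 sums ranged 1.29-fold, 1.48-fold and 1.30-fold between samples, and their single genes up to 2.76-fold, 2.39-fold and 1.78-fold. The leukocyte sum is dominated by Cd74, the gene of the 9 that was not lowest in replicate 1. Without Cd74, a sum formed after the values were seen, the list reached 408, 589.8, 728 and 689.9 CPM in replicates 1 to 4, a 1.78-fold range. Ptprc went from 48.4 CPM in replicate 1 to 108 CPM in replicate 3. In bulk samples, fewer cells of a type and less RNA per cell cannot be told apart.

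The podocyte and proximal tubule lists ran the opposite way. All 10 podocyte markers were highest in replicate 1 and lowest in replicate 2, with sums of 13433 and 7781 CPM. Among all genes, 27.7% were highest in replicate 1 and 31.5% lowest in replicate 2. The scaffold gene Magi2 was lowest and most variable, at 27.5 ± 15.7 CPM (SD, n = 4). Of the 10 proximal tubule markers, 8 were highest in replicate 1, and the sum was 6016 CPM there and 2931 CPM in replicate 3, the sample in which 6 of the 8 matrix genes were highest. Slc34a1, a phosphate transporter, led that list at 1556 ± 315 CPM, and Kap was lowest and most variable, at 211 CPM in replicate 1 and 22.8 CPM in replicate 2. The parietal epithelial list, from Akap12 at 149 ± 18.4 CPM to Krt18 at 3.91 ± 0.86 CPM, summed to 314 CPM in replicate 1 and 256 CPM in replicate 3. Of its 7 genes 3 were highest in replicate 1, and without Akap12 the sum was highest in replicate 2, at 152 CPM, with 139.7 CPM in replicate 1. Cdh6 varied most, with a log2 SD of 0.67. The part of tubular and podocyte RNA in the matrix values was not tested.

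Among markers of matrix-producing cells, the mesangial list summed to 2824, 2796, 3097 and 3655 CPM in replicates 1 to 4. Of its 10 genes, 6 were lowest in replicate 2 and 4 in replicate 1, against 31.5% and 35% of all genes. Without its most abundant gene, Des, left out after the values were seen, the sum was 2122, 1679, 2225 and 2641 CPM. Des, for the intermediate filament desmin, led the list at 926 ± 180.2 CPM (SD, n = 4), and Rgs5 was lowest at 17.9 ± 2.16 CPM. Des was lowest in replicate 1, at 701 CPM, and highest in replicate 2, at 1117 CPM. All 10 podocyte markers were highest in replicate 1 and lowest in replicate 2. Which cells the Des transcripts came from was not tested. For fibroblasts, 5 of 10 markers were analysed, and they summed to 691, 643, 797 and 746 CPM. Without Thy1 the sum was 379, 399, 449 and 385 CPM, lowest in replicate 1. Of the 5 genes, 2 were lowest in replicate 1, against 35% of all genes. Thy1 was the highest at 317 ± 52.5 CPM and Pdgfra, a receptor that marks fibroblasts, the lowest at 12.9 ± 3.02 CPM. Thy1 and Cd34, the latter at 282 ± 17.8 CPM, made up most of the sum, which averaged 719 CPM. The cells these transcripts came from were not determined, so the sum is no measure of fibroblast content. Dpt, the dermatopontin gene, varied most, from 14.0 CPM in replicate 1 to 31.1 CPM in replicate 4, and passed the fixed-trend test (adjusted p = 0.0312). No analysed marker of the 8 cell lists had fewer than 16 reads in any sample.

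**Figure D5:**
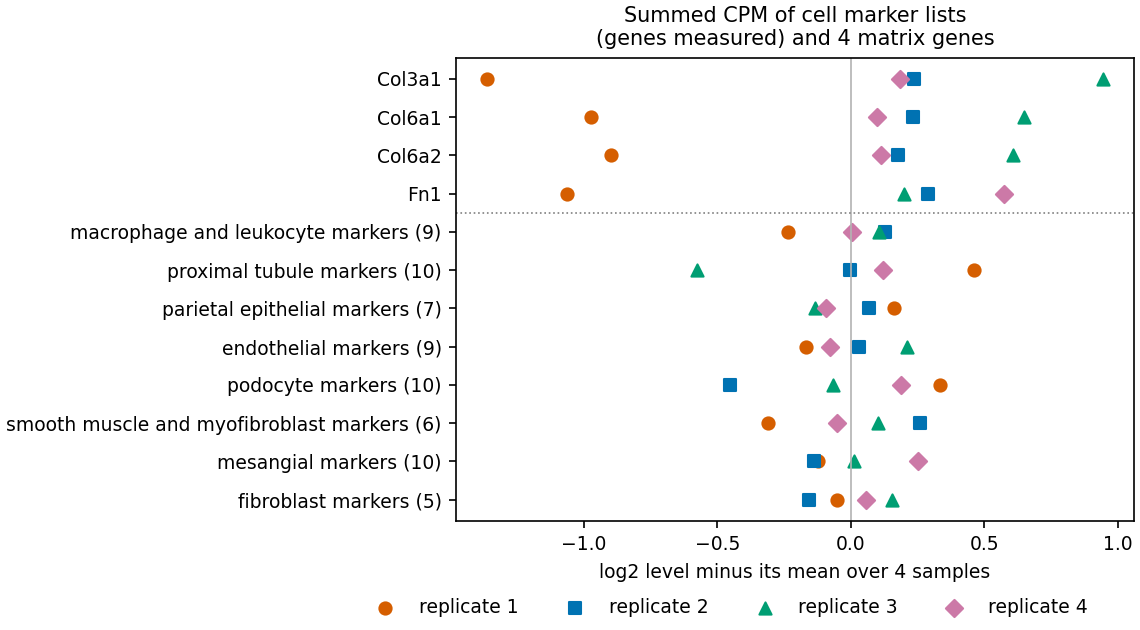
Log2 level minus its mean over the 4 samples (horizontal axis) for the summed CPM of 8 cell marker lists (number of genes measured in brackets) and for Col3a1, Col6a1, Col6a2 and Fn1, with a symbol per sample. Replicate 1 is lowest for the 4 matrix genes and in the leukocyte, endothelial and smooth muscle lists, and highest in the podocyte and proximal tubule lists and, through Akap12, in the parietal list.

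The other genes of matrix assembly were taken from 6 lists, with 56 of 85 genes analysed. The counting-noise test passed 54 of the 56, against 69.5% of all genes, and the fixed-trend test passed 14, against 7.52%. The limma test passed 0 of the 56 and 0% of all genes, with 10 of the 56 and 5.44% of all genes at an unadjusted limma p under 0.05. Their median log2 SD was 0.26, against 0.18 for all genes and 0.53 for the 8 members.

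Among the other collagen chains of the interstitium, 4 of 10 passed the fixed-trend test, which called 7.52% of all genes. Col12a1, a fibril-associated collagen and the highest of them, was at 366, 229.6, 344 and 466 CPM in replicates 1 to 4 and so shared its low in replicate 2 with Bgn, Col5a2 and Col1a1. Col27a1 was near 65.6 CPM in replicates 1 and 4 and near 111 CPM in replicates 2 and 3. The cartilage-type chains Col2a1 and Col11a1 were low throughout. Col2a1 had 59, 16, 15 and 27 reads, with replicate 1 highest. Of the other small leucine-rich proteoglycans, Prelp, at 12.5 ± 3.03 CPM (SD, n = 4), and Fmod, at 4.04 ± 0.99 CPM, were analysed. The fixed-trend test passed 0 of these 2, too few genes to set against 7.52% of all genes. Limma's test, which called 0% of all genes, passed 0 as well. Fmod was lowest in replicate 1, at 2.62 CPM.

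Genes for collagen folding and secretion were the most even of these 6 lists, with a median log2 SD of 0.13 over 13 genes. Of these 13, 2 passed the fixed-trend test, against 7.52% of all genes. Serpinh1, the collagen chaperone HSP47, was the highest at 716, 721, 748 and 814 CPM, and replicate 1 was not set apart. Sec23a, of the vesicle coat, was lowest at 24.2 ± 2.71 CPM. The calls were P3h2, a prolyl 3-hydroxylase, at 299, 113, 142 and 182 CPM, and Plod2, a lysyl hydroxylase, at 78.3, 41.7, 51.4 and 64.3 CPM. Both were highest in replicate 1 and lowest in replicate 2, as were all 10 podocyte markers, whose part in these values was not tested. Of 8 genes for propeptide cleavage and crosslinking, 0 passed the fixed-trend test, which called 7.52% of all genes. Limma's test, which called 0% of all genes, passed 0 as well. These 8 genes ran from Pcolce, an enhancer of procollagen cleavage, at 371 ± 46.0 CPM, to Lox, the lysyl oxidase, at 6.53 ± 1.64 CPM. Both were lowest in replicate 1, at 314 and 4.09 CPM.

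In the microfibril and elastic fibre list, 3 of 11 passed the fixed-trend test, against 7.52% of all genes. Eln, the elastin gene, was at 49.2, 75.7, 115 and 65.4 CPM, with the order of samples seen for Col3a1 and Col6a1 (adjusted p = 1.56e-04 in the fixed-trend test). Ltbp2 was high in replicate 2, at 30.4 CPM against 10.6 to 14.4 CPM in the others, and Efemp1 was high in replicate 1, at 19.0 CPM. Ltbp1, which tethers latent transforming growth factor beta to the matrix, was the highest of the list at 520.3 ± 86.3 CPM, and Fbln2 was lowest and most variable, at 1.66, 3.73, 5.44 and 2.39 CPM. Of the 12 collagen and fibronectin receptor genes, 5 passed, namely Ddr2, Itgav, Itga8, Mrc2 and Itgb5. All 5 were lowest in replicate 2, as were 8 of the 12 receptor genes, against 31.5% of all genes. So were all 10 podocyte markers, which summed to 13433, 7781, 10170 and 12126 CPM. Ddr2, Itgav and Itgb5 had the same order of samples as that sum. The part of podocyte RNA in the receptor values was not tested. Ddr2, a receptor tyrosine kinase for fibrillar collagen, was at 38.4, 9.84, 13.8 and 21.0 CPM. Itga8, the mesangial integrin subunit that binds fibronectin and nephronectin, was at 389, 182, 296 and 439 CPM. Itgb1, the common beta subunit, was highest at 1590.1 ± 279 CPM and Itgb3 lowest at 4.02 ± 0.86 CPM.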

How the data were processed

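Poly(A) RNA of sieved glomeruli was sequenced from 4 samples in 1 group (ADR), with stranded libraries run over 2 lanes per the labels. HISAT2, featureCounts, Subread, limma and the build Rnor_6.0 are named in the submitters' processing notes, without role or settings; the use of strand in counting is not given in the sources used here. The deposited values are log2; in every column 2 raised to the value was a whole number of reads plus 0.5 times a constant (100% of values within 0.01 reads), so the authors' values are log2 CPM with 0.5 reads added. From these, reads were recovered. Left out were 4 rows with displaced cells, and 116 rows sharing a symbol were not used by symbol.

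Spread was tested over 13261 genes with the index of dispersion of the reads, set against chi-square on 3 degrees of freedom, by the F test of an intercept-only limma fit with trend (limma 3.58.1, R 4.3.3), and by a Pearson statistic at a dispersion trend set in 40 bins of mean reads, each Benjamini-Hochberg adjusted with a threshold of 0.05. The planned ordering of members by level per kilobase was not made. Tests were checked on simulated reads in which all unchanged genes shared the same dispersion. That check cannot show how the tests behave where genes of like abundance differ in dispersion. Members and lists were chosen with earlier results of these data known. Genes named are the members, the highest, lowest and most variable gene of each list, and the 5 genes nearest the members' median profile; some genes that this rule selects are not reported here, and further genes that passed a test (such as Eln, Ptprc and Ddr2) were named after their values were seen. Alternatives were other scalings, pseudocounts, filters, bins, a robust prior and leaving out each replicate.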

Additional observations from a re-analysis of the deposited data

Results flagged for a closer look

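Of 60 results examined, 2 had an isolated lowest or highest sample by Dixon's test at the 95% level, in which the gap to the nearest sample is divided by the whole range. Chance flags about 3 of 60, and over all genes 5.08% were flagged. For the Col3a1 to Col1a1 ratio, replicate 1 was the isolated sample, with a quotient of 0.881. It combines the lowest Col3a1 value of the 4 samples, 31.0 CPM, with the second highest Col1a1 value, 449.9 CPM. Lox, the lysyl oxidase gene, had a quotient of 0.893 because replicate 1 held 55 reads and the other samples 107 to 120; its spread did not pass the fixed-trend test (adjusted p = 0.778, Pearson statistic on reads).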

How the results depend on the processing

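All 360 recomputed values but 9 kept their call or stayed within their criterion. Leaving out a replicate moved the number of members above the fixed dispersion trend between 2 and 4, the value of 2 (Col3a1 and Col1a1) being found without replicate 1. Over all genes the fixed-trend test called 997, and 664, 713, 594 and 626 without replicates 1 to 4 in turn. With 20 bins of mean reads, Col1a1 passed as well (adjusted p = 0.0381), giving 5 members. Limma's test called 0 genes under every alternative run, the robust prior included. The 64 recomputed levels moved by less than the SD between samples, which says little, since the mean over samples moves less than its SD when 1 of 4 is left out. The largest shift of a sample's median by another scaling was 0.0534 (log2), in replicate 2 with mitochondrial genes out of the total. With 187 reads in the lowest value, Col6a1 had the largest counting error of the 8 genes, a log2 SD of 0.08 against 0.69 between samples. Relative to the spread between samples, counting error weighed most on Col5a1, at 0.03 against 0.15. No paired analysis was possible because the series holds 1 group.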
